A study of Papio anubis with 60 samples.

Results

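Acetylation of histone H3 at lysine 27 (H3K27ac) away from wide H3K4me3 domains was examined in the olive baboon, Papio anubis. The regions of interest had it in induced pluripotent stem cells (iPSC) and not in embryonic stem cells (ESC) of the same species. The regions were chosen by measured values. They are peaks of the iPSC H3K27ac list on chromosomes 1 to 20, at least 300 bp wide, with no ESC H3K27ac peak within 1 kb, and over 1 kb from any H3K4me3 domain of 2 kb or more made by joining the H3K4me3 peaks of both cell types within 1 kb. Distal here means only this distance from such a domain. No promoter or gene position was used, and narrower H3K4me3 domains were allowed, so a distal peak may lie at a promoter. By these limits 2092 of the 221803 iPSC H3K27ac peaks were members, and they are called iPSC-only distal peaks below. They are 6.86% of the 30514 distal iPSC peaks of this width. That share follows from the rule and carries no test.

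H3K27ac is placed by the acetyltransferases p300 and CBP and marks active promoters and enhancers; enhancers usually lie away from start sites and are the part that differs most between cell types. H3K4me3 is a mark of promoters, H3K27me3 is laid down by the Polycomb complex PRC2 at silenced developmental genes, and H3K9me3 marks constitutive heterochromatin and silenced repeats. On one histone tail, acetylation and trimethylation of lysine 27 exclude each other. Reprogramming erases most of the chromatin state of the somatic cell, and distal elements are among the places where iPSC and ESC have been compared.

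The iPSC were of lines 160-2 and M14939#3 and the ESC of lines B4 and B15, all grown on feeder cells. Chromatin immunoprecipitation libraries, each of 50000 cells cut with micrococcal nuclease, were made in 3 replicates of each line for 4 marks and for input, 60 libraries in all. Each mark had 1 list in each cell type, 8 in all. With 1 list there is no replicate and no test, and since each line belongs to 1 cell type, cell type and line cannot be told apart. Coordinates are those of the lists, whose genome build is not stated in the material used. Depth is unknown, so the absence of an ESC peak means no peak that passed the caller's threshold, not the absence of acetylation. The intervals below are 95% Wilson intervals, or Newcombe intervals for differences. They cover counting error only, and neighbouring peaks are not independent.

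The iPSC-only distal peaks were narrow and weak, and they shaded into the peaks around them. Their width ran from 300 bp to 1581 bp with a median of 334 bp, and their fold enrichment, the authors' value over background, from 1.68 to 9.37 with a median of 2.71. Shared distal peaks, the 27355 of the same list, width and position that overlapped an ESC H3K27ac peak, had a median width of 374 bp and a median fold of 3.04. A −log10 q of at least 5 was reached by 38.6% of the iPSC-only peaks (36.5 to 40.7) and 69.7% of the shared ones (69.1 to 70.2), against 66.4% of all distal iPSC peaks. ESC-only peaks, which are defined below, had a median width of 357 bp and a median fold of 2.75 in the ESC list. The low fold was thus not particular to the members, though 60.9% of the ESC-only peaks reached that −log10 q. The iPSC-only share was 16.8% (15.6 to 18.2) among distal peaks with a −log10 q under 3 and 1.103% (0.880 to 1.38) among those at 10 or above. Among distal peaks of any width it was 25.2% (24.9 to 25.5) below 200 bp and 1.20% (0.932 to 1.53) at 500 bp and above. Width chose the members, and fold and −log10 q come from the same list, so these values describe them only.

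At the edges of the rule in width and in distance to an ESC peak the median fold differed little, and at the edge in distance to a domain, with few peaks, it was higher outside. Members 300 to 309 bp wide numbered 351 and had a median fold of 2.64, while 418 peaks of 290 to 299 bp that met the other limits had 2.59. For the distance to the nearest ESC H3K27ac peak, 353 members at 1001 to 1500 bp had a median fold of 2.68, and 424 peaks at 501 to 1000 bp had 2.64. For the distance to an H3K4me3 domain, 24 members at 1001 to 1500 bp had a median fold of 2.59, and 9 peaks at 501 to 1000 bp had 3.08. A further 1067 distal iPSC peaks had an ESC peak within 1 kb without touching it. They resembled the members, with a median width of 338 bp, a median fold of 2.65 and an iPSC H3K4me3 peak at 41.2% (38.3 to 44.2).

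Most iPSC-only peaks had no other member close by, but other acetylated peaks of both cell types were near. When members were joined over the stitching distance commonly used for super-enhancers, 2024 of 2058 clusters held 1 member and 34 held 2, which was the most. The closest such pair spanned 851 bp at 102333219 to 102334069 of chromosome 6. Members are sparse, with a mean of 0.803 in a bin of 1 Mb, and no other set of peaks was joined in this way for comparison. Another iPSC H3K27ac peak of any width lay within 1 kb of 9.23% of the members (8.06 to 10.5) and of 35.9% of the shared peaks (35.3 to 36.4). Within 5 kb it was 56.5% of the members (54.3 to 58.6) and 72.5% of the shared peaks (71.98 to 73.0), and the median distance was 4168 bp and 1945 bp. Between 2 and 50 kb from its centre, a member had a median of 9 iPSC and 14 ESC H3K27ac peaks, against 11 and 19 around a shared peak. Only 4 members had no ESC peak in that range. The nearest ESC H3K27ac peak was a median of 3242 bp away, and it lay over 10 kb and up to 50 kb away for 252 members and over 50 kb away for 4. The rule itself cleared 1 kb of ESC peaks, and the comparison of surroundings is a description.

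**Figure D1:**
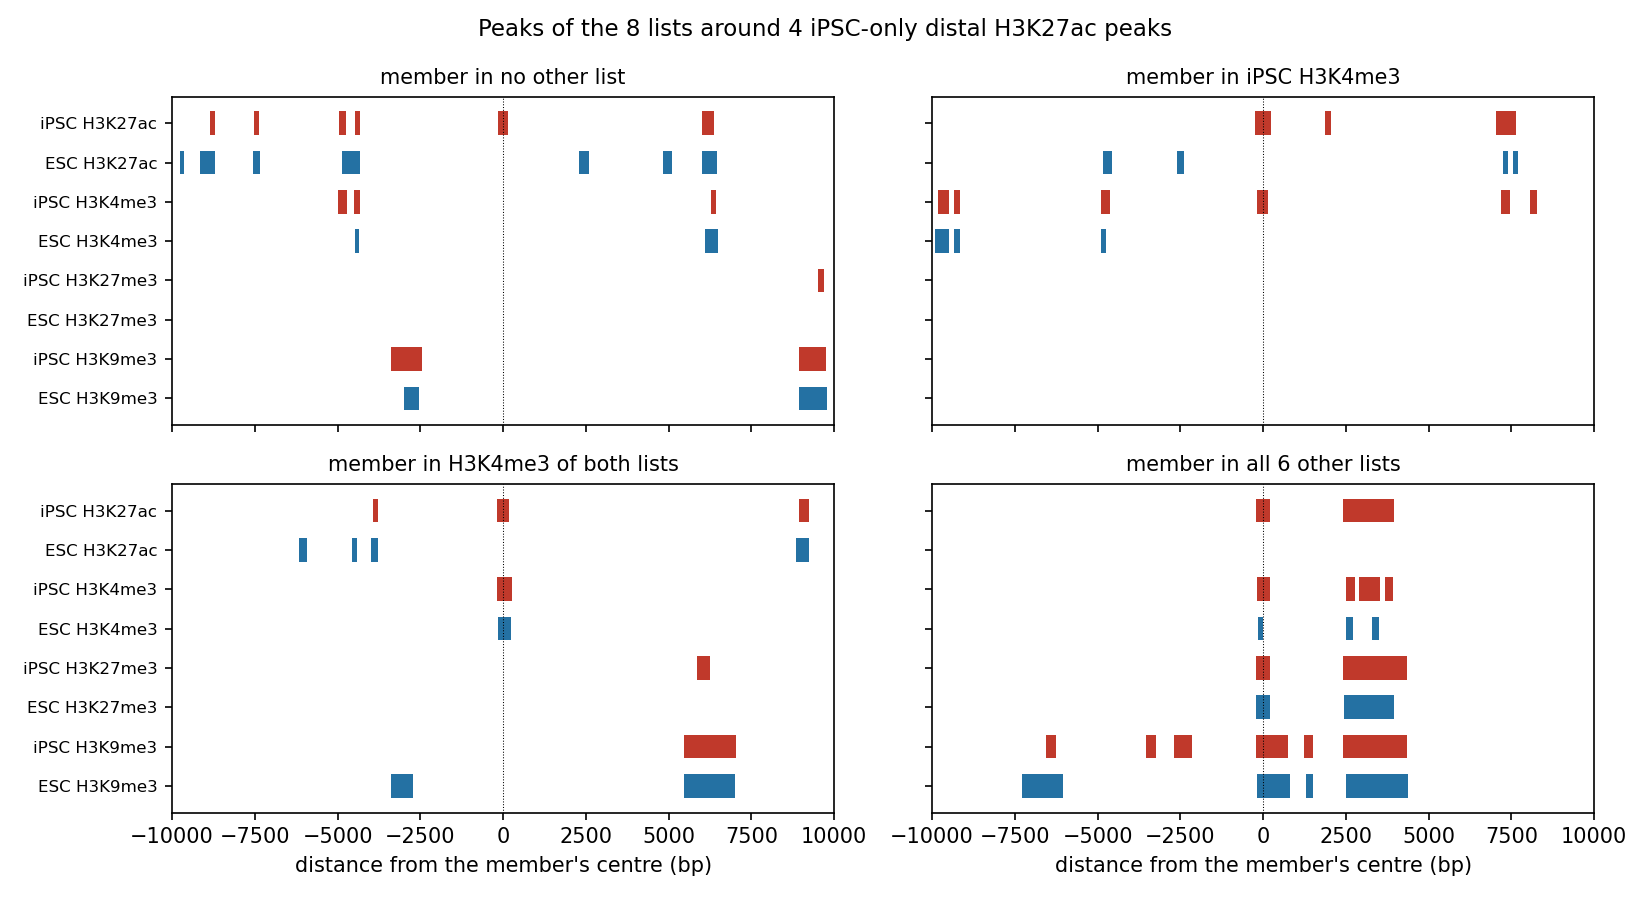
Peaks of the 8 lists within 10 kb of 4 iPSC-only distal H3K27ac peaks, by distance from the centre of the member in bp; red blocks are peaks of iPSC lists and blue blocks peaks of ESC lists. The 4 are the members with the highest fold among those in no other list, in the iPSC H3K4me3 list alone, in both H3K4me3 lists and in all 6 other lists; around the first 3, ESC H3K27ac peaks flank a gap at the centre, and around the last there is none within 10 kb.

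The map shows 4 members of high fold, which are not typical, since the median fold of all members was 2.71. The member at 133608366 to 133608673 of chromosome 3 had a fold of 4.95 and a −log10 q of 13.6, and no other mark was called on it. Its nearest ESC H3K27ac peak was 2149 bp away, and ESC peaks stood on both sides. At 101906220 to 101906720 of chromosome 6 the fold was 4.83, and an iPSC H3K4me3 peak of 334 bp covered 66.7% of the member, with no ESC H3K4me3 peak on it. The member at 141006658 to 141007019 of chromosome 6, with a fold of 5.24, lay in H3K4me3 peaks of both lists, 450 bp wide in iPSC and 408 bp wide in ESC.

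The commonest state of an iPSC-only peak was H3K27ac with no other mark in either cell type. The rule did not use H3K27me3 or H3K9me3, and used H3K4me3 only to keep domains of 2 kb or more away. In 1083 of 2092 members (51.8%, 49.6 to 53.9) none of the 6 lists of the other marks had an overlapping peak, against 7508 of 27355 shared peaks (27.4%, 26.9 to 28.0). The state was not particular to the members: it was found at 53.96% of the ESC-only peaks (53.3 to 54.6), which are defined below, and at 50.7% of the iPSC peaks with an ESC peak within 1 kb (47.7 to 53.7). The next groups were 379 members with H3K4me3 in both lists and no other mark (18.1%), and 312 with H3K4me3 in the iPSC list alone (14.9%). Among shared peaks those 2 states held 46.4% and 8.11%. H3K4me3 in the ESC list alone was found at 56 members, 2.68%, and at 5.48% of the shared peaks.

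Where a member had H3K4me3 in 1 list only, that list was mostly the iPSC list, but 481 members had it in both. The iPSC H3K4me3 list overlapped 830 members, 39.7% (37.6 to 41.8), and the ESC H3K4me3 list overlapped 553, 26.4% (24.6 to 28.4). All distal iPSC peaks had 61.2% and 57.7%, and shared peaks 63.6% (63.0 to 64.2) and 61.2% (60.7 to 61.8). Members were thus 23.9 percentage points below shared peaks in the iPSC list (difference −23.9, −26.1 to −21.7) and further below in the ESC list (−34.8, −36.7 to −32.8). The autosomal H3K4me3 lists were of similar length, 308062 peaks in iPSC and 305565 in ESC. Of the 421 members with H3K4me3 in 1 list only, 349 had it in iPSC and 72 in ESC, so the iPSC list took 82.9% (79.0 to 86.2). Shared peaks gave 57.7% (56.2 to 59.2). This tilt was not particular to the members. The 1067 iPSC peaks with an ESC peak within 1 kb had 41.2% in the iPSC list and 26.9% in the ESC list (24.3 to 29.6). Of those with H3K4me3 in 1 list only, the iPSC list took 83.1% (77.8 to 87.4).

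At peaks of the other cell type the order of the lists was the opposite. ESC-only distal peaks, chosen by the same limits with the cell types exchanged, numbered 22841, 31.2% of 73306 distal ESC peaks. The iPSC H3K4me3 list overlapped 24.6% of them (24.1 to 25.2) and the ESC list 34.6% (34.0 to 35.2). Of the 3911 with H3K4me3 in 1 list only, 820 had it in iPSC, 20.97% (19.7 to 22.3). The iPSC H3K27ac list is the shorter, with 213657 autosomal peaks against 376101 in ESC, and the part of list length in the size of the 2 one-sided sets was not tested. By chromosome, the H3K4me3 share of members was higher in the iPSC list on 19 of 20 autosomes and lower on chromosome 19, which held 18 members. Shared peaks had the iPSC list higher on 15 of 20 and the ESC list higher on 4, and for ESC-only peaks the ESC list was higher on 20 of 20. When the H3K4me3 peak had to reach a −log10 q of 5 and the other list had to have no peak at all, 211 members had it in iPSC and 46 in ESC, 82.1% (77.0 to 86.3).

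**Figure D2:**
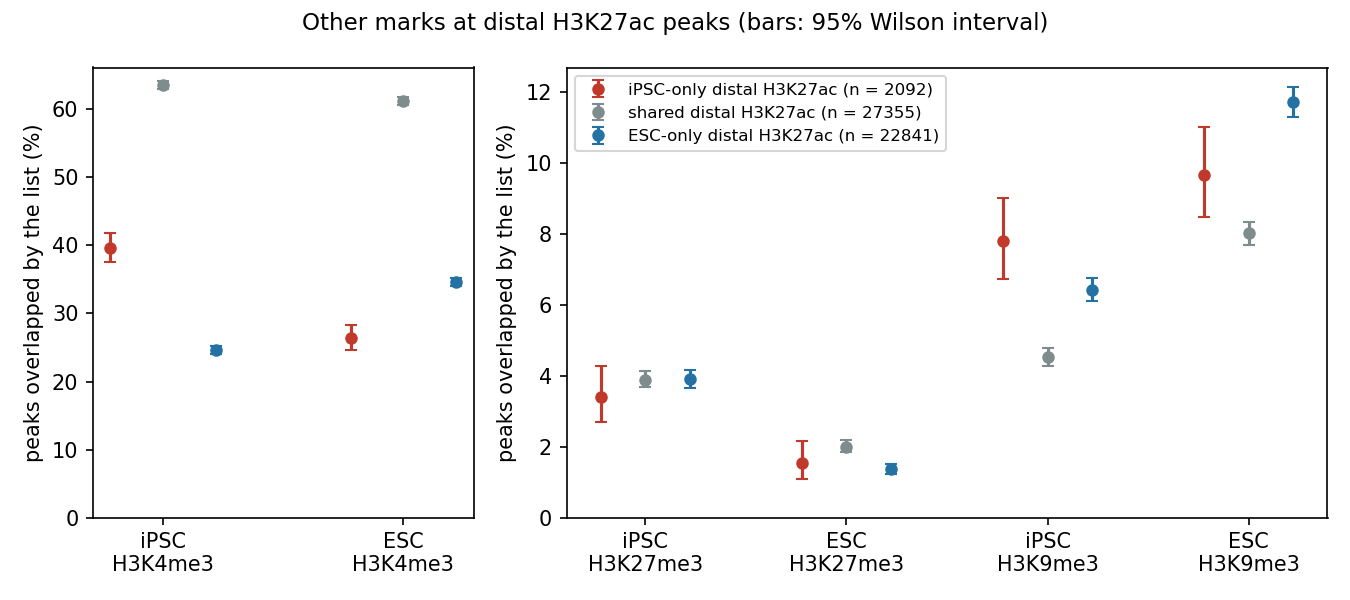
Percent of distal H3K27ac peaks that shared at least 1 bp with a peak of each other list, for 2092 iPSC-only, 27355 shared and 22841 ESC-only peaks; bars are 95% Wilson intervals and the panels have different scales. H3K4me3 was at 39.7% of iPSC-only peaks in the iPSC list and 26.4% in the ESC list, the order being opposite at ESC-only peaks.

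The differences were also present within classes of strength. Members and shared peaks were divided by the −log10 q of the H3K27ac peak. Between 3 and 5, the iPSC H3K4me3 list overlapped 39.4% of members (36.0 to 42.9) and 49.6% of shared peaks (48.3 to 50.8), and the ESC list 23.6% (20.7 to 26.7) and 49.0% (47.8 to 50.3). Between 5 and 10 the iPSC list gave 41.5% and 62.9%, and the ESC list 29.3% and 60.03%. At 10 or above, where 74 members remain, the iPSC list gave 70.3% (59.1 to 79.5) and 84.2%, and the ESC list 44.6% (33.8 to 55.9) and 80.2%. In each of the 4 classes the iPSC list overlapped more members than the ESC list did. At shared peaks the 2 lists gave 44.5% and 45.3% in the weakest class, where members had 33.1% (29.1 to 37.3) and 23.9% (20.4 to 27.8).

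**Figure D3:**
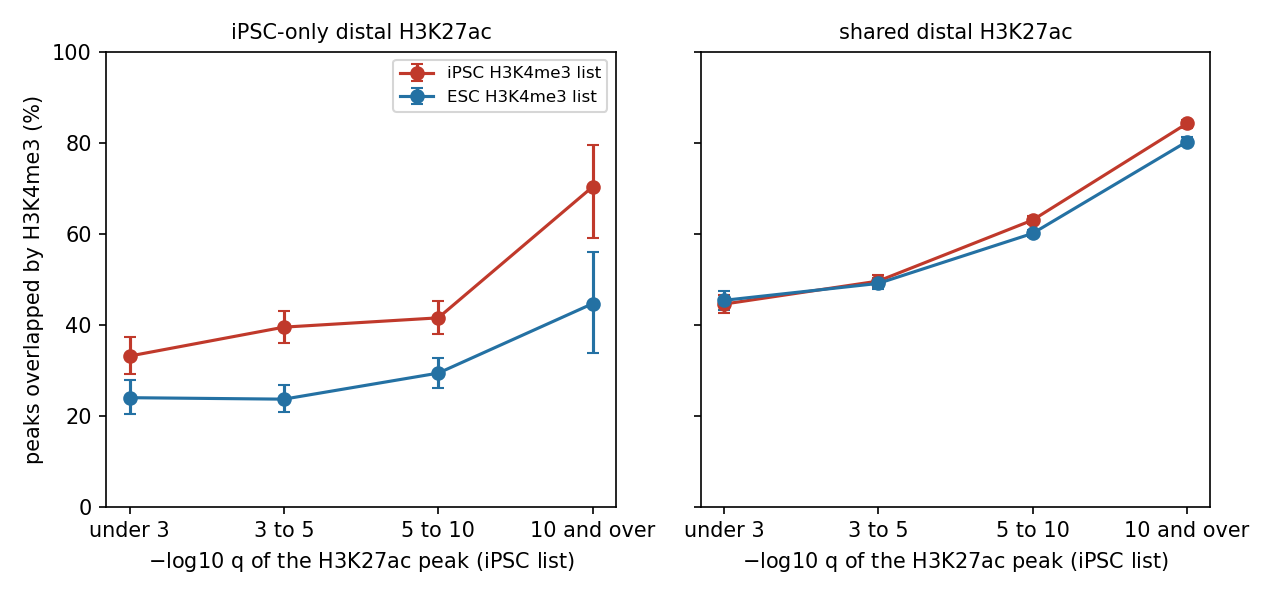
Percent of iPSC-only (left) and shared (right) distal H3K27ac peaks overlapped by the iPSC (red) and ESC (blue) H3K4me3 lists, by the −log10 q of the H3K27ac peak in the iPSC list; bars are 95% Wilson intervals. The lines of both lists run together at shared peaks and apart at iPSC-only peaks, 70.3% and 44.6% in the class of 10 and over.

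The H3K4me3 on members was small, as the rule required, and the median fold of the H3K27ac peak was lowest where it was in the ESC list alone. The iPSC H3K4me3 peaks on members had a median width of 355 bp, against 450 bp on shared peaks, and those of the ESC list 340 and 419 bp. Members with H3K4me3 in the iPSC list alone had a median fold of 2.78, those with it in both lists 2.73, those with it in neither 2.68, and the 72 with it in the ESC list alone 2.42. Members within 5 kb of an H3K4me3 domain had iPSC H3K4me3 in 59.2% and ESC H3K4me3 in 39.0%, and those over 100 kb from one in 35.8% and 23.2%. At shared peaks the same classes gave 66.1% and 63.4%, and 62.1% and 61.1%.

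H3K9me3 lay on more of the iPSC-only peaks than of the shared ones, in both lists. The iPSC H3K9me3 list overlapped 163 members, 7.79% (6.72 to 9.02), against 4.51% of the shared peaks (4.27 to 4.77) and 4.76% of all distal iPSC peaks. The ESC H3K9me3 list overlapped 202 members, 9.66% (8.46 to 10.996), against 8.01% (7.69 to 8.34) and 8.08%. The differences were 3.28 points (2.17 to 4.53) and 1.65 points (0.409 to 3.02). The higher share was not particular to the members, since ESC-only peaks had 6.42% (6.11 to 6.75) in the iPSC list and 11.7% (11.3 to 12.1) in the ESC list. In the iPSC list, members were higher than shared peaks in each of the 4 classes of strength. Below a −log10 q of 3 the shares were 5.25% (3.63 to 7.53) and 3.02% (2.39 to 3.80). From 3 to 5 the shares were 5.84% (4.39 to 7.72) and 4.09% (3.62 to 4.62). In these 2 classes the intervals overlapped. From 5 to 10 the shares were 10.2% and 4.12%, and at 10 or above 21.6% and 6.17%. Of the 16 members with iPSC H3K9me3 at 10 or above, 10 belong to the strong group set apart below. In the ESC list the order was the other way in the 2 weaker classes, 7.004% against 8.09% and 6.74% against 7.995%, and members were higher only from 5 upward, with 12.7% against 7.92% and 28.4% against 8.17%. Of the 21 members behind the 28.4%, 9 belong to that strong group.

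H3K9me3 became more frequent with distance from ESC acetylation. Among members with an ESC H3K27ac peak at 1 to 2 kb, 6.05% had H3K9me3 in the iPSC list and 7.29% in the ESC list, and among the 252 members at 10 to 50 kb the shares were 11.1% and 15.9%. The rise between these 2 classes was not particular to H3K9me3. H3K4me3 went from 37.4% to 44.4% in the iPSC list and from 22.3% to 31.7% in the ESC list. H3K27me3 went from 2.33% to 5.56% and from 0.775% to 2.78%. None of the 4 members beyond 50 kb had H3K9me3. Where present it covered most of the member, with a median of 89.4% of its length in the iPSC list and 88.4% in the ESC list, against 68.2% and 73.6% at shared peaks. H3K9me3 domains of at least 10 kb, joined within 3 kb, held 16 members in iPSC (0.765%, 0.471 to 1.24), against 0.468% of the shared peaks (0.394 to 0.556). In ESC such domains held 33 members (1.58%, 1.13 to 2.21), against 0.914% of the shared peaks (0.808 to 1.03). Of the members with H3K9me3 in 1 list only, 41 had it in iPSC and 80 in ESC. Shared peaks had 413 and 1369, and the ESC H3K9me3 list is the longer, with 260371 autosomal peaks against 209447 in iPSC.

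H3K27me3 was rare at the members, and its difference from the shared peaks changed with the limits used. The iPSC H3K27me3 list overlapped 71 of them, 3.39% (2.70 to 4.26), against 3.89% of the shared peaks and 3.79% of all distal iPSC peaks, a difference of −0.50 points (−1.23 to 0.398). The ESC list overlapped 32, 1.53% (1.09 to 2.15), against 2.00% and 1.93%, a difference of −0.47 points (−0.950 to 0.168). Both intervals included 0. When any peak without overlap with an ESC peak was a member the differences were −0.95 points (−1.53 to −0.259) in iPSC and −0.71 points (−1.09 to −0.220) in ESC, and when H3K27me3 had to cover at least 50% of the peak they were 1.003 points (0.366 to 1.81) and 0.23 points (−0.155 to 0.784). Most of the members with H3K27me3 also had H3K9me3. Of the 71 members with it in iPSC, 57 also had iPSC H3K9me3, 80.3% (69.6 to 87.9), against 39.6% (36.7 to 42.5) at shared peaks. ESC-only peaks had 77.2% (74.3 to 79.8). In the ESC lists it was 19 of 32 members, 59.4% (42.3 to 74.5), against 17.5% (14.6 to 20.9) of the shared peaks and 26.0% (21.5 to 31.2) of the ESC-only peaks. The group of 10 set apart below is included here: all 10 had both marks in iPSC, and 9 are among the 32. These shares were not computed without that group.

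A group of 10 members, set apart after their values were seen, stood far above all others in −log10 q, and each of them bore all 3 other marks in iPSC. Their −log10 q ran from 31.6 to 119, while the next member had 19.5 and the other 2082 had a median of 4.27. All 10 overlapped H3K4me3, H3K27me3 and H3K9me3 peaks of iPSC and a repressive mark of ESC. Among the 926 shared distal peaks with a −log10 q of at least 20, 53 bore the 3 iPSC marks, 5.72% (4.40 to 7.41). Those shared peaks were weaker, with a median −log10 q of 24.3 against 68.4 for the 10, so the comparison is not matched for strength. The 10 members fell at 7 places, since 3 places held 2 each within 20 kb. They included the 3 highest folds of all members, 9.37, 8.21 and 7.26, the next being 5.31. For the other 7 the fold lay from 3 to 5 with a median −log10 q of 67.8, and the 13713 other distal iPSC peaks in that range of fold had a median of 8.98 and a highest value of 69.7.

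**Figure D4:**
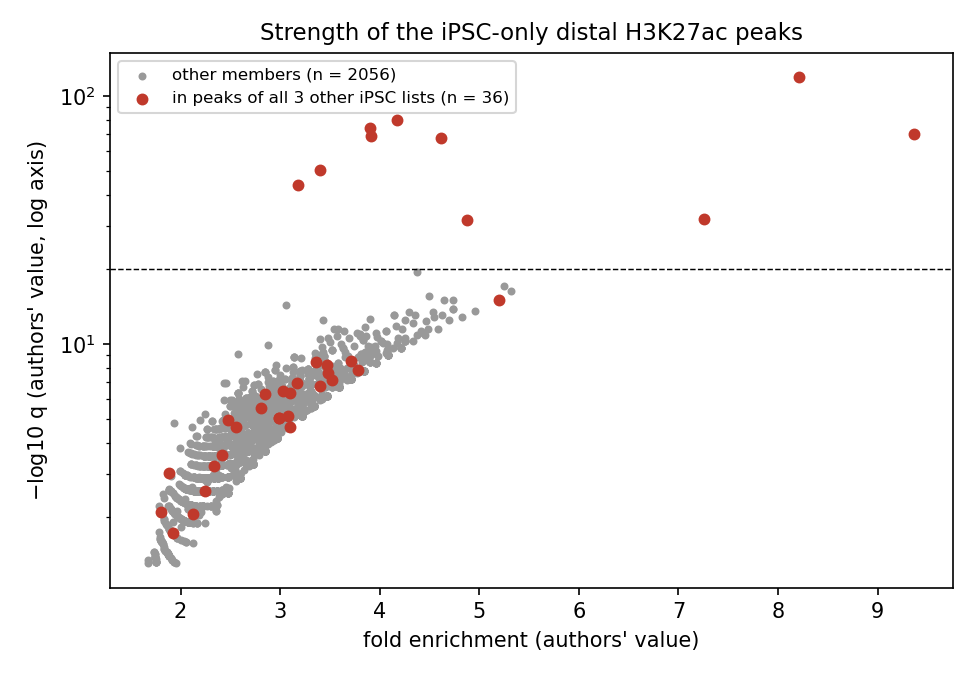
Fold enrichment (horizontal axis) and −log10 q (vertical axis, log scale) of the 2092 iPSC-only distal H3K27ac peaks, both the authors' values; red points are the 36 members that overlap peaks of all 3 other iPSC lists and the dashed line marks 20. The 10 points above the line are all red, and the other 26 red points lie among the grey ones.

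Most of these places also ranked near the top of the autosomal iPSC H3K9me3 list. The member at 108510524 to 108510947 of chromosome 6 (fold 8.21, −log10 q 119) had the highest −log10 q of all autosomal peaks of the iPSC H3K27ac list. The nearest ESC H3K27ac peak lay 11947 bp away. The member was fully covered by an iPSC H3K9me3 peak that ranked 12 by −log10 q in its list. A second member nearby, at 108513158 to 108514678 and 1521 bp wide, had a −log10 q of 50.5, and the iPSC H3K9me3 peak on it ranked 9. The widest member, 1581 bp at 149727866 to 149729446 of chromosome 5, had a fold of 4.17 and a −log10 q of 80.2. The iPSC H3K9me3 peak on it was the first of its autosomal list, with a −log10 q of 77.3, and the iPSC H3K27me3 peak on it ranked 27.

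On chromosome 7, the member at 78551287 to 78551724 (−log10 q 69.1) lay in the iPSC H3K9me3 peak that ranked 2, and the one at 1601073 to 1601718 (67.8) in the one that ranked 4, with a neighbour at 1602633 to 1603010 (31.6) in the one that ranked 14. On chromosome 8, the members at 101347030 to 101348357 (74.3) and 101363086 to 101363463 (43.6) lay in those that ranked 11 and 6. The member with the highest fold, 9.37 at 102940116 to 102940665 of chromosome 13, lay 2531 bp from an ESC H3K27ac peak and in an iPSC H3K9me3 peak that ranked 192. At 33154912 to 33155245 of chromosome 10 the fold was 7.26, and the repressive marks ranked far lower, with a −log10 q of 2.85 for iPSC H3K27me3 and 3.46 for iPSC H3K9me3. In ESC, 9 of the 10 bore H3K27me3, with a −log10 q of 6.52 to 23.8, and 9 bore H3K9me3, with 3.15 to 11.6. H3K4me3 of ESC was found on 6 of them, at 3.18 to 9.18. Whether these places are single-copy sequence in the genome to which reads map uniquely was not tested, and the values of several marks there carry that limit.

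Without these 10, the shares of H3K4me3 and H3K9me3 kept their order between members and shared peaks. The iPSC H3K4me3 share of the members was then 39.4% and that of ESC 26.3%, and the iPSC H3K9me3 share 7.35% (6.30 to 8.55). With peaks of this strength left out of the shared set too, the difference in iPSC H3K9me3 was 3.03 points (1.95 to 4.25). In ESC H3K9me3 it was 1.21 points (−0.00417 to 2.57), an interval that includes 0. For H3K27me3 it was −0.18 points (−0.862 to 0.656) in iPSC and −0.39 points (−0.788 to 0.175) in ESC. With the 10 left out of the members and the strong shared peaks kept, it was −0.96 points (−1.64 to −0.114) and −0.90 points (−1.30 to −0.328).

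The remaining members among the 10 highest folds lay in peaks of 0 to 3 other lists, except 1 that lay in 5. Next by fold came 5.31 at 171906142 to 171906499 of chromosome 6, in H3K4me3 of both lists and H3K9me3 of ESC. At 27676451 to 27676782 of chromosome 17 the fold was 5.20, with 5 of the 6 other lists present. At 132534642 to 132534970 of chromosome 1 the fold was 4.74, and H3K4me3 of both lists was the other mark. Of the 5 widest members, 3 belonged to the 10 above. The others were 870 bp at 62096114 to 62096983 of chromosome 12, in iPSC H3K4me3 and H3K27me3 and in H3K9me3 of both lists, and 774 bp at 70497592 to 70498365 of chromosome 5, with a fold of 2.18 and a weak −log10 q of 2.88.

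The iPSC-only share of distal peaks was lower on chromosomes dense in H3K4me3 domains, while the number of members per length followed domain density less closely. It was 2.76% on chromosome 19 (18 of 651 peaks, 1.76 to 4.33), 3.90% on chromosome 20 and 4.37% on chromosome 16, and highest on chromosome 18 with 8.47% (60 of 708, 6.64 to 10.8). The median over 20 autosomes was 7.20%. Chromosome 19 had 23.3 H3K4me3 domains of 2 kb or more per Mb and chromosome 18 had 9.86. Over 20 autosomes the share and this density had a Pearson's r of −0.915 and a Spearman's rho of −0.836. Without the 2 chromosomes densest in domains these were −0.838 and −0.779. For members per 100 Mb, which ran from 35.03 on chromosome 19 to 95.6 on chromosome 2, r was −0.743 and rho −0.442. The share thus also moves with its denominator, the number of all distal peaks. The points share the same lists and the same domain set, which also defined what was distal. Members also had to lack an ESC H3K27ac peak within 1 kb. How dense ESC H3K27ac peaks were on each chromosome was not compared with the share.

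**Figure D5:**
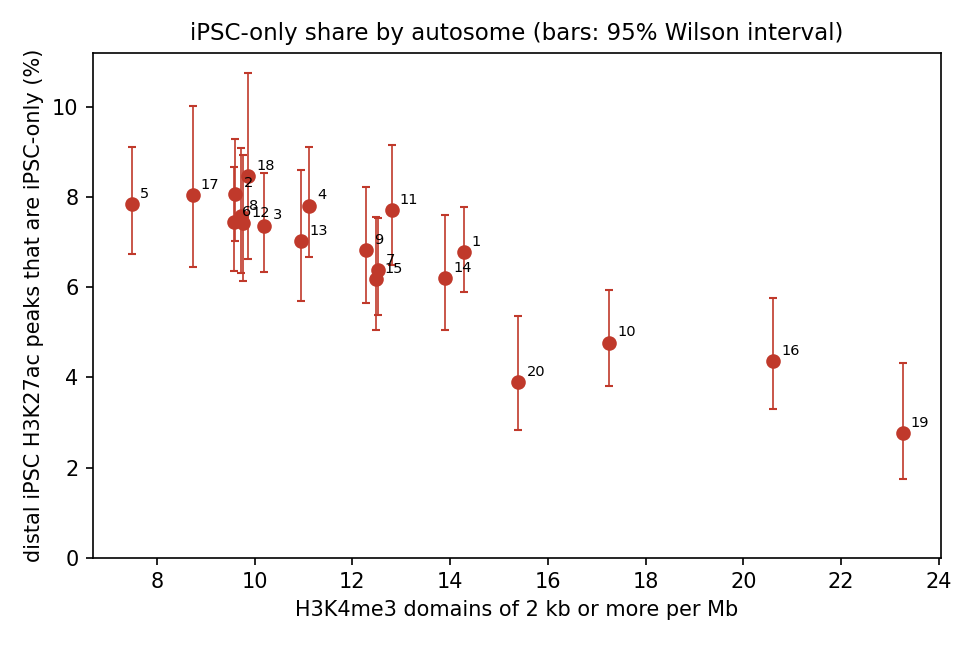
Percent of distal iPSC H3K27ac peaks that were iPSC-only (vertical axis, with 95% Wilson intervals) against the number of H3K4me3 domains of 2 kb or more per Mb (horizontal axis), 1 point for each of 20 autosomes, labelled by number. Chromosome 19 lies lowest at 2.76% and chromosome 18 highest at 8.47%.

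At the scale of 1 Mb, with the bins of all autosomes pooled, the share was again lower in bins with more domains, other than bins with none, but the number of members per bin did not follow that order. In bins with 1 to 5 domains 8.39% of the distal peaks were iPSC-only (7.67 to 9.17), in bins with 16 to 30 domains 5.05% (4.64 to 5.50), and in bins with 31 or more 2.88% (2.17 to 3.80). Members per bin were 0.691 in bins with 1 to 5 domains, 0.919 with 6 to 15, 0.787 with 16 to 30 and 0.495 with 31 or more, and all distal peaks per bin were 8.24, 11.4, 15.6 and 17.2. The 51 bins with no domain had 6.06% (16 of 264, 3.76 to 9.62). For peaks with a −log10 q under 5 alone, the classes of 1 to 5, 16 to 30 and 31 or more domains gave 15.3% (13.7 to 17.0), 9.80% (8.82 to 10.9) and 5.37% (3.78 to 7.56). Members were spread thinly: 1357 of 2604 bins held at least 1, with a mean of 0.803 per bin. The most in a bin was 6, at 137 to 138 Mb of chromosome 4 (of 22 distal peaks) and at 19 to 20 Mb of chromosome 12 (of 18), and 9 bins held 5, among them 29 to 30 Mb (of 18) and 121 to 122 Mb (of 13) of chromosome 3 and 103 to 104 Mb of chromosome 4 (of 23). In 29 bins the iPSC H3K9me3 list covered at least 20 points more of the bin than the ESC list did, and there 3 of 66 distal peaks were members, 4.55% (1.56 to 12.53). That interval includes the 6.86% found over all distal iPSC peaks.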

How the data were processed

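The ChIP-seq libraries were processed with tools that include deepTools, Picard, SAMtools 1.10 and MACS2, per the submitters' processing notes. Not given in the sources used here are the aligner, the build, the thresholds and how libraries and inputs were combined. Each deposited list gives the authors' fold enrichment, a ratio over background, and a −log10 q for each peak. The deposited −log10 p and the integer display score were not used. The lowest −log10 q was 1.30 in the narrow lists (H3K27ac, H3K4me3) and 1.00 in the broad ones.

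Members were found on the peaks as deposited, with 30730 H3K4me3 domains of 2 kb or more. A mark was counted as present where a peak shared at least 1 bp with the member. A gap of exactly 1 kb was taken as within 1 kb. Domain density and bins of 1 Mb used the furthest peak end as the length of a chromosome. Python 3.11.15, pandas 2.3.3 and SciPy 1.17.1 were used, and the overlap functions were tested on simulated data.

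The members, the comparisons and the lists were chosen with earlier results of these data known. Regions are named by fixed ranks: the 10 highest folds, the 5 widest, and the 3 highest folds with each iPSC mark. Clusters and bins were to be named by their 5 highest counts, but 34 clusters tie at 2 and 9 bins at 5, so the closest pair, chosen after its span was seen, and the first 5 bins by count, then position, are given. The group with a −log10 q of at least 20 and the 4 mapped members were chosen after their values were seen, as were the classes by strength, distance and domain density. The gene table at hand is of assembly Panubis1.0, and on 12 of 20 autosomes its furthest gene ends over 5 Mb from the furthest peak. No gene was therefore joined to a peak, and no sequence is shown.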

Additional observations from a re-analysis of the deposited data

How the results depend on the processing

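The number of members followed the limits of the rule. It was 807 with a −log10 q of at least 5, 3159 when no overlap with an ESC peak was enough, 671 with no ESC peak within 5 kb, 10239 from a width of 200 bp and 61 from 500 bp. With domains made of H3K4me3 peaks with a −log10 q of at least 5 it was 2125. Merging overlapping iPSC peaks could change nothing, since no peaks of the list overlap. The differences from shared peaks in H3K4me3 stayed negative and those in H3K9me3 positive under all alternatives run. The interval for ESC H3K9me3 included 0 with no distance limit (0.664, −0.324 to 1.74). It also included 0 without peaks of a −log10 q of at least 20 (1.21, −0.00417 to 2.57). Differences outside the interval of the reported value follow, in points. With a −log10 q of at least 5 they were −26.2 for iPSC H3K4me3, 1.26 for iPSC H3K27me3, 6.45 for iPSC H3K9me3 and 6.12 for ESC H3K9me3. With no ESC peak within 5 kb they were −32.5 for ESC H3K4me3, 1.33 for iPSC H3K27me3, 5.47 for iPSC H3K9me3 and 4.81 for ESC H3K9me3. From a width of 200 bp it was −31.6 for ESC H3K4me3. From a width of 500 bp, with 61 members, they were −14.0 and −30.0 for iPSC and ESC H3K4me3, 4.79 and 3.74 for H3K27me3, and 21.9 and 20.5 for H3K9me3. Where the other mark had to cover at least 50% of the peak they were 1.003 and 0.23 for iPSC and ESC H3K27me3. The sign for H3K27me3 thus depends on the limits, and the cause was not tested. Leaving out peaks with a −log10 q of at least 20, an alternative added after the data were seen, moved no difference out of its interval. No paired analysis was possible because each cell type and mark has 1 list, which carries no replicate number, so no library could be left out either.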
